A study of Sus scrofa with 226 samples.

Results

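Neurons of dorsal root ganglia from pigs aged 17 to 20 weeks were compared with neurons from pigs aged 11 to 12 weeks, all recorded and sequenced after 1 day in culture. The cells were taken by their sample titles, which give the age and the days in culture, and each cell was assigned to a pig through the animal number in the table of recordings. This left 39 cells of 4 pigs at 17-20 weeks and 37 cells of 3 pigs at 11-12 weeks, 76 cells in all, beside 150 other cells of the series that were of other ages or days. The older pigs were animal 7 (18 weeks, 8 cells), animal 8 (20 weeks, 2 cells), animal 9 (17 weeks, 23 cells) and animal 10 (18 weeks, 6 cells). The younger pigs were animals 1 and 2 (11 weeks, 11 and 15 cells) and animal 3 (12 weeks, 11 cells). All pigs are labelled WT, and no treatment is given for any of them. Ganglia of cervical, thoracic and lumbar levels were dissociated, single neurons were patched, and the pipette content and then the whole cell were collected into 1 tube for a Smart-Seq2 library (Patch-seq). The study was designed to find molecular markers of mechano-insensitive C-fibres, and its design text names no question about age.

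Dorsal root ganglion neurons are the first neurons of the somatosensory pathway. Their cell bodies send an axon branch to the skin, muscle or viscera and another to the spinal cord. Slowly conducting C-fibre neurons include nociceptors, whose sodium, potassium and HCN channels set how easily an action potential starts, how tall and wide it is and how fast it can be repeated. Dissociation cuts the axon, so cultured neurons also carry an injury and regrowth programme, of which the transcription factor ATF3 and the growth cone protein GAP43 are well-known members. A pair of neuron classes recurs below, named here by the level of their marker gene: cells with high OSMR, the oncostatin M receptor subunit that pairs with IL31RA in itch-related C-fibres, and cells with high ADCYAP1, which encodes the neuropeptide PACAP of peptidergic nociceptors.

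The cells held between 152873 and 3788354 estimated counts each, with a median of 686785 at 17-20 weeks and 1200335 at 11-12 weeks. The median number of genes detected ran the other way, 15056 against 13727, and the median share of counts from the mitochondrial genome was 4.74% against 3.78%. Animal 8 gave the smallest sum over its cells, 609551 counts, and animal 3 the largest, 25457482. The label neuron was checked against 9 pan-neuronal markers. Their mean log2(CPM + 1) lay between 7.04 and 7.92 as the pigs' averages in the older pigs and between 7.08 and 7.78 in the younger pigs, where CPM is the count scaled to the total of the library. In single cells this score ran from 5.74 to 8.53 at 17-20 weeks and from 3.97 to 8.33 at 11-12 weeks. It was low in 3 of the younger cells, 3.97 in a cell of animal 3 and 5.21 and 5.25 in cells of animal 2, and the cell at 5.21 had a higher satellite glia score, 5.69. Without these 3 cells SHISAL1, the gene called below, was at 3.54 ± 0.37 (edgeR, adjusted p = 0.0173) and remained the 1 gene called. The count of recorded parameters passing stayed at 0, which the exact test used below could hardly exceed with so few pigs. The numbers that name the libraries ran from 16514 upward in the older pigs and up to 16277 in the younger pigs, and the recorded weight was 56 to 74 against 28 to 35 (no unit is given), so that age, weight and the order in which libraries were numbered cannot be told apart. No stretch of library numbers held pigs of both ages, so no comparison within such a stretch was possible. Nothing in the labels ties cells to a separate culture within a pig, and the pig is the replicate throughout. Another 47 and 12 neurons of the older and younger pigs (none of animal 3), collected after 2 or 3 days in culture, and 48 neurons of 3 pigs of 14 to 15 weeks at 1 day, are used below only beside the main comparison.

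The picked cells were of both classes at both ages. An OSMR-high cell had a log2(CPM + 1) of OSMR of 6 or more, an ADCYAP1-high cell one of ADCYAP1 of 7 or more, and 6 and 5 of the 76 cells lay within 1 of these cuts. ADCYAP1-high cells were 62.5% of the cells of animal 7, 100% of animal 8, 73.9% of animal 9 and 83.3% of animal 10 at 17-20 weeks, against 45.5%, 53.3% and 63.6% in animals 1, 2 and 3 at 11-12 weeks. The share was lowest in the 11 week pigs, and the groups overlapped by animals 7 and 3. OSMR-high cells were 37.5%, 0%, 34.8% and 0% of animals 7 to 10, against 54.5%, 40% and 9.09% of animals 1 to 3, so this share differed as much within an age as between ages. The means were 79.9 ± 15.9% and 54.1 ± 9.12% for ADCYAP1-high cells (SD, n = 4 and 3, difference 25.8 percentage points, exact permutation test, two-sided, p = 0.0857) and 18.1 ± 20.9% and 34.5 ± 23.2% for OSMR-high cells (difference -16.5, exact p = 0.371). The smallest p that 4 against 3 pigs allows is 0.0286. A sum over few neurons moves with which classes were picked, so each result below is also given within ADCYAP1-high cells where that changes it. Gene sums within a class kept only pigs with at least 3 cells of that class, so those of ADCYAP1-high cells lack animal 8. Recorded parameters within a class kept every pig with such a cell.

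**Figure D1:**
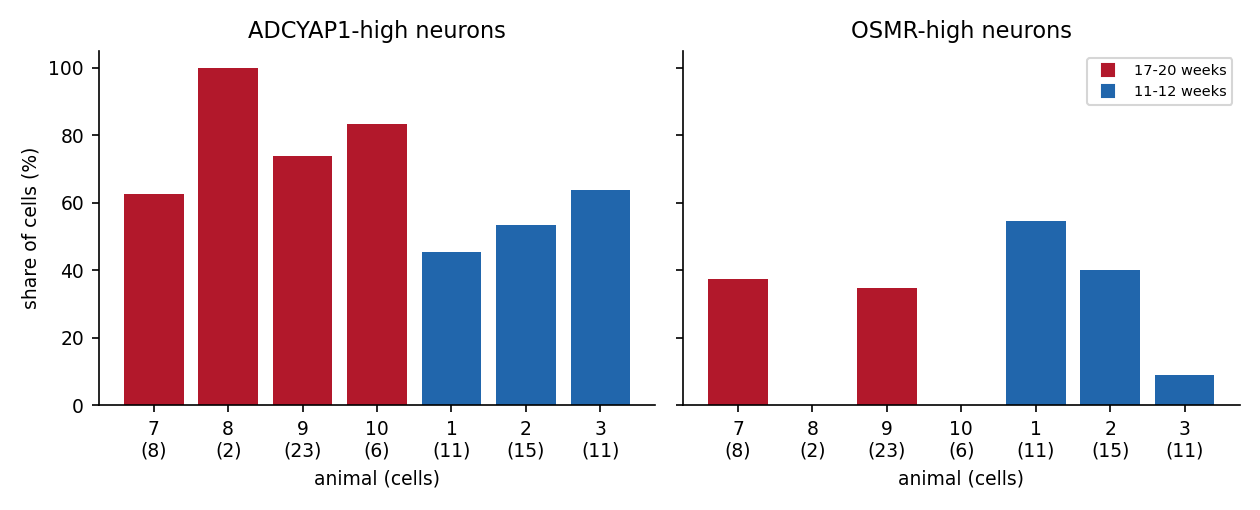
Share of ADCYAP1-high and of OSMR-high neurons among the cells of each pig at 1 day, in percent, with 1 bar per pig and the 17-20 week pigs on the left. ADCYAP1-high cells run from 62.5% to 100% at 17-20 weeks and from 45.5% to 63.6% at 11-12 weeks, and OSMR-high cells are at 0% in animals 8 and 10.

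A single gene, SHISAL1, passed the test across the transcriptome and was higher in the older pigs. SHISAL1 (ENSSSCG00000039522) encodes a Shisa-like single-pass membrane protein. Counts were summed over the cells of each pig and tested with edgeR's quasi-likelihood test, with Benjamini-Hochberg adjustment over 19315 genes and a threshold of 0.05. This test called 1 gene higher (0.00518% of those tested) and 0 lower (0%), whereas DESeq2 called 38 higher and 10 lower. In the edgeR test 982 genes had an unadjusted p under 0.05, about as many as chance alone would give over 19315 genes. SHISAL1 stood at a log2 CPM of 8.27, 8.08, 7.84 and 8.36 in animals 7, 8, 9 and 10 at 17-20 weeks, against 4.88, 3.69 and 4.90 in animals 1, 2 and 3 at 11-12 weeks. All the older pigs were above all the younger pigs, with a gap far wider than the spread within either age. The log2 fold change was 3.58 ± 0.39 (SE; edgeR, adjusted p = 0.0191).

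SHISAL1 separated the 76 cells one by one. Every one of the 39 cells at 17-20 weeks had reads, with a log2(CPM + 1) of 7.38 at the lowest, 8.16 at the median and 9.98 at the highest, against 0, 3.66 and 6.74 in the 37 cells at 11-12 weeks, of which 33 had reads. No cell of 1 age lay within the range of the other, in either neuron class. In OSMR-high cells alone, with only animals 7 and 9 against animals 1 and 2, the SHISAL1 difference was 4.57 ± 0.47 (edgeR, adjusted p = 0.0548). In ADCYAP1-high cells alone, without animal 8, it was 3.13 ± 0.36 (edgeR, adjusted p = 0.0594). The direction was kept and the call was lost in both sets, which hold fewer cells and fewer pigs. In the neurons of 2 and 3 days SHISAL1 stood at 8.04, 7.58, 7.96 and 8.12 in animals 7 to 10, against 3.89 and 4.19 in animals 1 and 2. These cells are not among the 76, but they come from the same pigs. The log2 fold change there was 3.91 ± 0.33 (edgeR, adjusted p = 0.0082), the 1 gene called of 16999 (0.00588%).

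Among the pigs of 14 to 15 weeks SHISAL1 took 2 levels. At 1 day it stood at 5.48 in animal 4 (14 weeks), above the younger pigs but nearer to them than to the older pigs, and at 8.29 and 8.03 in animals 5 and 6 (15 weeks), level with the older pigs. At 2 and 3 days these 3 pigs stood at 5.29, 8.23 and 9.03. A slope of SHISAL1 over the weeks of all 10 pigs was 0.51 ± 0.11 per week and missed the threshold (edgeR, adjusted p = 0.298). Animals 1 to 4 carry library numbers up to 16287 and animals 5 to 10 numbers from 16441, and the step in SHISAL1 falls at that place as well as between 14 and 15 weeks. Whether SHISAL1 follows age or the libraries cannot be told apart with these pigs. The call also needs nearly all of them: leaving out animal 1, 2, 3, 7, 9 or 10 gave adjusted p of 0.249, 0.135, 0.153, 0.0871, 0.0852 and 0.0679 at log2 fold changes between 3.24 and 3.77, whereas leaving out animal 8 gave 0.0115.

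Another pair of genes had a similar step at 1 day. ZDHHC7 encodes a palmitoyltransferase of the DHHC family, and ENSSSCG00000043168, chosen after its values were seen, has no symbol in the name tables used here. ZDHHC7 stood at a log2 CPM of 5.65, 5.01, 5.91 and 5.93 in the older pigs, against 7.77, 8.02 and 8.16 in the younger pigs, and at 8.23, 6.33 and 6.26 in animals 4, 5 and 6. The older pigs were all below the younger ones, with animal 4 level with the younger group and animals 5 and 6 slightly above the older group. At 2 and 3 days animal 6 stood at 7.04, between the ages. The log2 fold change of ZDHHC7 was -2.30 ± 0.31 (edgeR, adjusted p = 0.0915), short of the threshold. It crossed the threshold without animal 8, the pig with 2 cells (-2.16, adjusted p = 0.0161). ENSSSCG00000043168 stood at 6.79, 7.70, 6.68 and 5.83 in the older pigs, against 0.20, 2.79 and 2.05 in the younger pigs, and at 1.87, 7.23 and 7.65 in animals 4, 5 and 6 (log2 fold change 4.93 ± 0.72, edgeR, adjusted p = 0.128). Neither group overlapped the other, and animal 4 again lay with the younger pigs.

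**Figure D2:**
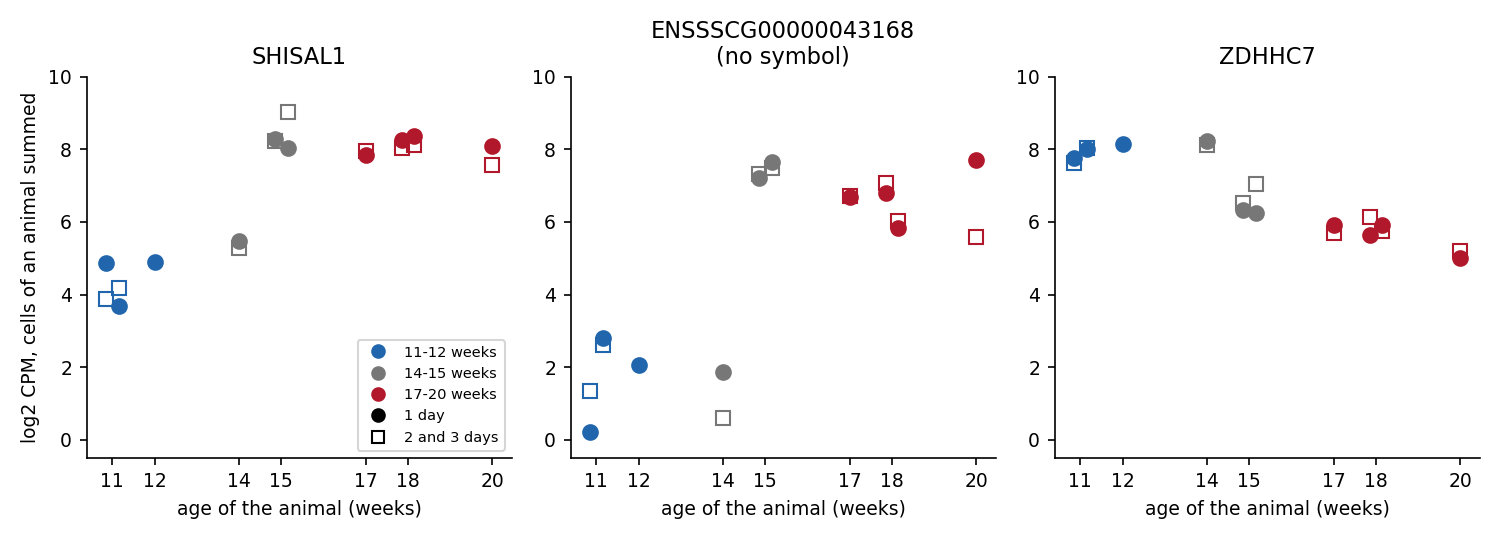
Level of SHISAL1, ENSSSCG00000043168 and ZDHHC7 in each of the 10 pigs against age in weeks, in log2 CPM of the counts summed over the cells of a pig. Circles are cells of 1 day and squares cells of 2 and 3 days; at 1 day animal 4 at 14 weeks lies nearer to the 11-12 week pigs, and animals 5 and 6 at 15 weeks nearer to the 17-20 week pigs, in all 3 genes.

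The next genes by p did not pass and are given as levels. Among those higher in the older pigs was ATP1B2, a beta subunit of the sodium pump that is also a glial marker, at a log2 CPM of 5.27, 7.81, 7.50 and 7.0 against 3.27, 5.10 and 3.93. ATF3, a transcription factor induced by axon injury, stood at 7.51, 6.50, 7.55 and 8.16 against 6.29, 5.68 and 5.91. MRAP2, an accessory protein of melanocortin receptors, stood at 7.11, 6.54, 6.95 and 5.80 against 5.19, 4.53 and 5.34. ACHE, the enzyme that degrades acetylcholine, stood at 8.26, 7.70, 7.67 and 6.94 against 6.27, 6.72 and 6.14. The log2 fold changes of these 4 genes were 2.87 ± 0.64 for ATP1B2, 1.58 ± 0.39 for ATF3, 1.65 ± 0.42 for MRAP2 and 1.33 ± 0.35 for ACHE (edgeR, adjusted p between 0.808 and 0.966). In none of them did the pigs of the ages overlap. They are listed for their small p in these same pigs, so this is no separate evidence. Of the genes with a mean log2 CPM over 4, 3.3% were higher without overlap. After 2 and 3 days the value of ATF3 was -0.65 ± 0.63, of the other sign, while that of MRAP2 was 4.84 ± 0.99 (adjusted p 0.727 and 0.188). Animal 1 gave only 2 cells there. ATF3 stood at 9.22 in animal 1 and 6.18 in animal 2, against 7.57, 8.29, 6.92 and 7.66 in animals 7 to 10. Its other sign thus rests on animal 1. MRAP2 had no reads in animal 1 and stood at 2.24 in animal 2, against 6.25, 6.83, 6.68 and 4.98.

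Among those lower in the older pigs was SRSF6, a splicing factor of the SR family, at 5.95, 6.04, 6.09 and 6.35 against 7.73, 7.59 and 7.54. TRIB2, a pseudokinase of the Tribbles family, stood at 6.74, 4.94, 5.76 and 5.56 against 7.72, 8.77 and 7.81. RALYL, an RNA-binding protein of the RALY family, stood at 5.71, 5.55, 5.49 and 5.33 against 7.17, 7.09 and 6.57. TMEM135, a membrane protein tied to mitochondria and peroxisomes, stood at 5.46, 5.07, 5.27 and 5.08 against 7.07, 7.39 and 6.0. The pigs of the 2 ages were apart in each of these, most narrowly in TMEM135 between animals 7 and 3. These genes too are listed for their small p, so the gap is no separate evidence. Of the genes with a mean log2 CPM over 4, 9.87% were lower without overlap. The log2 fold changes were -1.50 ± 0.28 for SRSF6, -2.26 ± 0.43 for TRIB2, -1.44 ± 0.32 for RALYL and -1.69 ± 0.38 for TMEM135 (edgeR, adjusted p 0.733 for SRSF6 and TRIB2 and 0.808 for RALYL and TMEM135). Within single cells the ranges overlapped: SRSF6 ran from 0 to 7.41 in older cells and from 0 to 9.36 in younger cells.

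Pigs that do not overlap were more often lower than higher at 17-20 weeks. Over all genes tested, 527 (2.73%) had every older pig above every younger pig and 929 (4.81%) every older pig below. A random order of 4 and 3 pigs gives a share of 0.0286 in each direction, so the higher share was near chance. Among the 6274 genes with a mean log2 CPM over 4 these were 3.3% higher and 9.87% lower, the lower ones being 619 genes. The median log2 fold change was -0.05 over all genes and -0.16 over the better-measured ones, of which 61.3% were negative. Over all genes the median was -0.0002 without animal 8 and 0.13 with limma on per-cell means. The shares of the main fit are the background for the gene groups that follow.

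Gene groups were described by 35 lists, of whose 583 genes 506 were matched to the table and 424 tested; 0 list members passed. The nuclear genes of oxidative phosphorylation, which encode subunits of the respiratory chain and the ATP synthase, leaned lower in the older pigs. Of 28 tested, 25 had a negative and 3 a positive log2 fold change, with a median of -0.46, against -0.16 over genes of mean log2 CPM over 4. The median level of the list was 8.31, 7.70, 8.07 and 8.31 log2 CPM in animals 7, 8, 9 and 10, against 8.73, 8.29 and 8.51 in animals 1, 2 and 3, so animals 7 and 10 lay just above animal 2. The pigs did not overlap in 11 of the 28 (39.3%, against 9.87% of the better-measured genes), chosen after their values were seen: NDUFA4, NDUFA8, NDUFB5, NDUFB10 and NDUFS1 of complex I, SDHD of complex II, COX5B, COX7B and COX7C of complex IV, ATP5F1C of the ATP synthase and CYCS, the electron carrier cytochrome c. COX7C stood at 9.56, 8.52, 9.13 and 9.52 against 10.1, 9.91 and 10.2 (log2 fold change -0.83 ± 0.27, edgeR, adjusted p = 0.966).

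The lean of this list held in the neurons of 2 and 3 days, where 1 of 28 was positive and the median was -0.66, and within ADCYAP1-high cells (median -0.46, 4 of 28 positive). It turned to 0.05, with 16 of 28 positive, when each cell weighed equally as the mean of per-cell log2(CPM + 1) and limma was used, a scaling in which the median of all genes was 0.13. The most abundant members were COX6A1 of complex IV, at -0.40 ± 0.24, and ATP5F1A of the ATP synthase, at -0.31 ± 0.24. The 13 protein-coding genes of the mitochondrial genome had a median of -0.01, with 6 positive and 7 negative and 0 of them apart between the ages (0.52 with 13 of 13 positive on per-cell means); ATP6 stood at 13.45, 11.92, 13.02 and 13.35 against 13.29, 13.29 and 13.58. A pair of mitochondrial chaperonins lay on the same side as the nuclear respiratory genes. HSPE1, the HSP10 co-chaperonin, stood at 7.66, 7.35, 7.22 and 7.44 against 8.86, 8.31 and 8.48 (-1.13 ± 0.26, edgeR, adjusted p = 0.808), and its partner HSPD1 was at -0.70 ± 0.28 (0.966), both chosen after their values were seen. HSPE1 was at -1.28 ± 0.26 after 2 and 3 days (adjusted p = 0.188).

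Ribosomal protein genes leaned the same way with a smaller difference. Of 38 tested, 35 were negative and 3 positive, with a median of -0.31. The pigs did not overlap in 8 (21.1%, against 9.87% of the better-measured genes). These were RPL5, RPL6, RPL14, RPL27, RPL35, RPS3A, RPS7 and RPS23, chosen after their values were seen. Such genes have many processed pseudogenes, and how reads shared with them were counted is not stated. Their median level was 7.35, 6.22, 7.42 and 7.41 log2 CPM in the older pigs, against 7.68, 7.23 and 7.36 in the younger pigs, with animal 8 apart from the rest and the others overlapping. Without animal 8 the median was -0.16. Within ADCYAP1-high cells, a fit that also lacks animal 8, the median was 0.07, so the direction was not kept there. It was 0.04 with limma on per-cell means. Heat shock and unfolded protein genes had a median of -0.17, with 8 of 20 positive (0.52 with 15 of 20 positive on per-cell means). HSP90AA1 and HSP90AB1, the abundant cytosolic chaperones, were at -0.19 ± 0.21 and -0.20 ± 0.25, whereas TRIB3, a pseudokinase induced by the stress response, stood at 5.51, 5.35, 4.97 and 5.34 against 4.31, 4.38 and 3.64 (1.18 ± 0.45, adjusted p = 0.966), chosen after its values were seen.

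**Figure D3:**
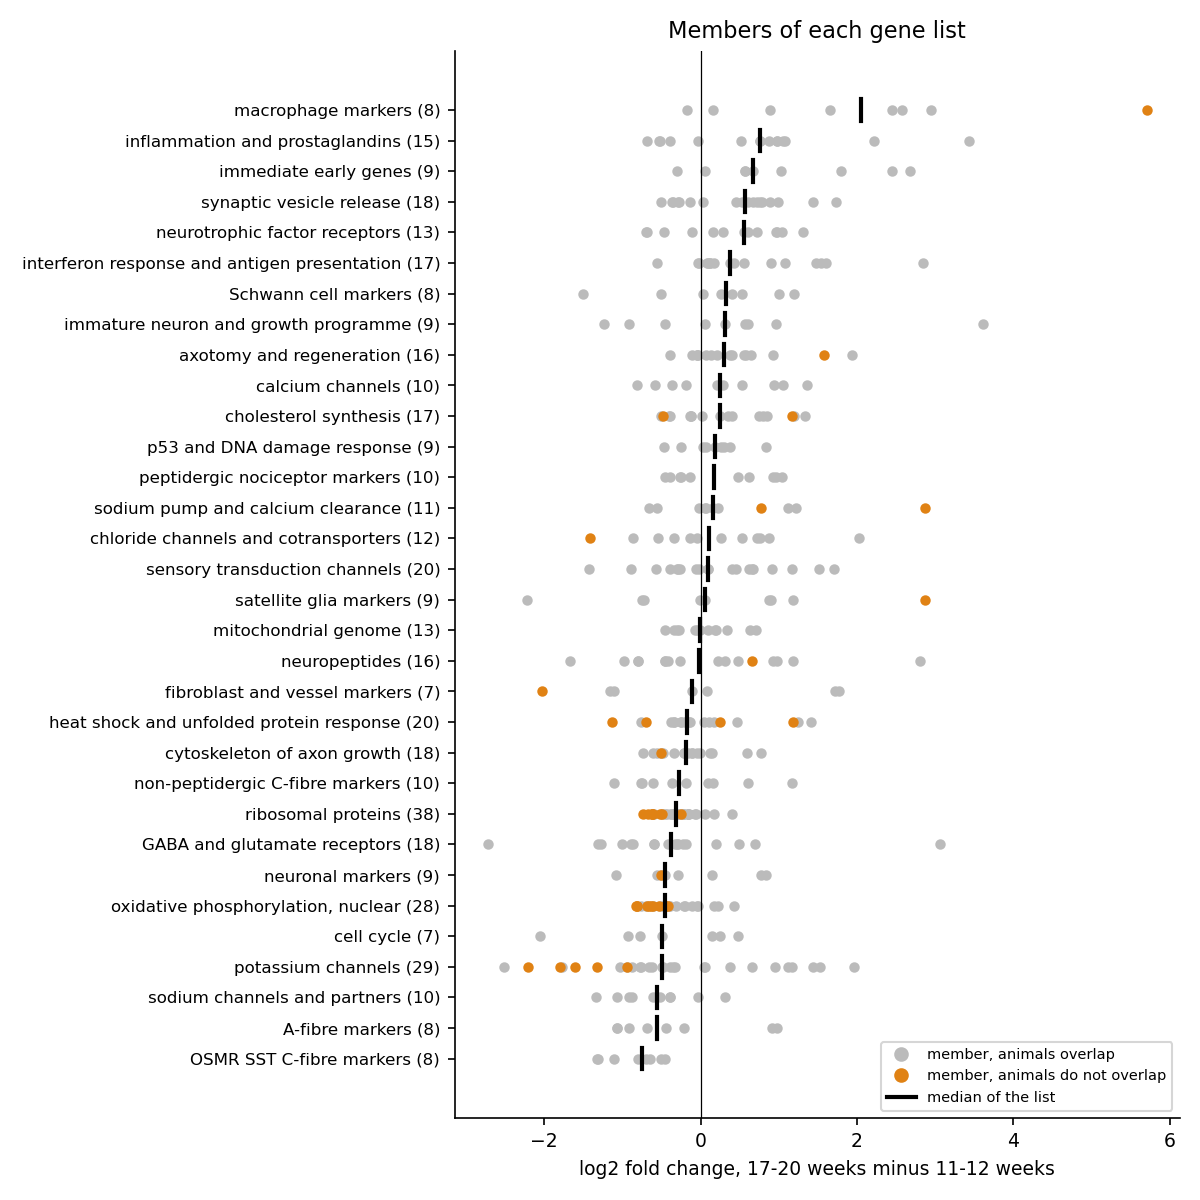
Log2 fold change, 17-20 over 11-12 weeks, of every tested member of the lists with at least 5 of them, 1 point per gene, with the median of a list as a bar and genes whose pigs do not overlap in orange. The nuclear oxidative phosphorylation list has 25 of 28 members below 0 and a median of -0.46, the ribosomal list 35 of 38 and -0.31, and the macrophage list reaches up to 5.70.

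Ion channel genes showed no member past the test. Sodium channel genes and their partners were negative in 9 of 10, with a median of -0.56 that was -0.34 without animal 8 and 0.05 on per-cell means. SCN9A, SCN10A and SCN11A, which encode the NaV channels of nociceptors, were at -0.40 ± 0.40, -0.03 ± 0.42 and -0.60 ± 0.57, and SCN10A stood at 6.94, 5.76, 6.34 and 5.83 in the older pigs against 6.93, 6.26 and 5.55 in the younger pigs, which overlap throughout. FGF12, a cytosolic partner of these channels, and SCN7A, an atypical sodium channel, were at -0.51 ± 0.32 and -0.39 ± 0.32. Potassium channel genes were negative in 19 of 29, with a median of -0.49 that was -0.31 without animal 8 (-0.18 with 14 of 29 positive on per-cell means). In 5 of the 29 (17.2%, against 4.81% of all genes tested) every older pig was below every younger pig. Among them were KCNQ5, KCNH5, KCNH7 and KCNK2, chosen after their values were seen.

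KCNQ5, a subunit of the M-current that holds neurons below threshold, stood at a log2 CPM of 3.84, 2.18, 3.35 and 3.91 in the older pigs, against 5.30, 4.44 and 5.85 in the younger pigs. The ages were apart, with a log2 fold change of -1.79 ± 0.56 (edgeR, adjusted p = 0.966), but after 2 and 3 days it was 0.46 ± 0.66. KCNK2, the leak channel TREK-1, stood at 5.02, 4.29 and 5.16 in animals 7, 9 and 10, against 5.90, 6.13 and 5.44, with no counts in animal 8 (-1.33 ± 0.73). KCNH5, a channel of the EAG family, rests on few counts, with 8, 0, 30 and 7 in animals 7 to 10, against 61, 45 and 82 in animals 1 to 3. KCNIP4, a Kv4 accessory protein and the most abundant of the list, was at -0.77 ± 0.35, KCNAB2, a Kv1 beta subunit, at 0.04 ± 0.31, and KCNA2, a Kv1 channel, at -0.48 ± 0.84. No adjusted p of these potassium channel genes was below 0.966.

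The genes of nociceptor identity overlapped between the ages. The OSMR group was negative in 8 of 8 with a median of -0.75, which was -0.05 in ADCYAP1-high cells alone and -0.06, with 4 of 8 positive, on per-cell means. OSMR itself was at -1.31 ± 0.79, its co-receptor IL31RA at -0.65 ± 0.81, and the neuropeptide genes SST, for somatostatin, and NPPB, for a natriuretic peptide, at -0.80 ± 0.52 and -0.46 ± 0.31. OSMR stood at 7.15, 1.62, 6.23 and 4.43 in the older pigs, against 7.62, 7.61 and 6.10 in the younger pigs, and was lowest in animals 8 and 10, which had no OSMR-high cell. In the peptidergic group 5 of 10 were positive, with a median of 0.17 (0.93 with 8 of 10 positive on per-cell means). ADCYAP1 was at 0.48 ± 0.48, TAC1, for substance P, at -0.45 ± 0.28 and GAL, for galanin, at 0.92 ± 0.55. The transduction channels TRPV1 for heat, TRPA1 for irritants, TRPM8 for cold and PIEZO2 for touch were at 0.62 ± 0.45, -0.39 ± 0.60, 0.67 ± 0.97 and -0.89 ± 1.09. Adjusted p over these 11 genes ran from 0.969 to 0.995.

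The axon injury and growth genes were mixed. Of 16 tested, 11 were positive, with a median of 0.30 (1.10 on per-cell means). GAP43 stood at 10.7, 10.9, 10.4 and 10.8 against 10.4, 10.6 and 11.4, which overlap (-0.12 ± 0.26). KLF7, a transcription factor of axon growth, was at 1.94 ± 0.82, with 12.6 in animal 8 and 10.5, 9.05 and 8.4 in animals 7, 9 and 10, against 8.97, 9.51 and 8.88, and was at 0.44 without animal 8. STMN2, a tubulin-binding protein of growth cones, stood at 12.1, 11.7, 12.0 and 12.3 against 12.8, 12.4 and 12.5, apart by a narrow gap (-0.50 ± 0.21, edgeR, adjusted p = 0.966). ATP1B1, a beta subunit of the sodium pump, was at -0.56 ± 0.56 (adjusted p = 0.993).

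Cells with a high score of macrophage markers were found in animals 9 and 10, and also in each pig of 14 to 15 weeks. Of the cells, 7 of animal 9 and 2 of animal 10 had a mean macrophage score of 3 or more on the log2(CPM + 1) scale, and 0 of animals 7 and 8 and of the younger pigs. At 14 to 15 weeks and 1 day, 1 of 10, 6 of 13 and 4 of 25 cells of animals 4, 5 and 6 had such a score. The summed level of the 12 listed markers averaged 218.3, 254.5, 406.3 and 504.1 CPM per cell in animals 7, 8, 9 and 10, against 182.6, 200.6 and 266.7 in animals 1, 2 and 3. Of 8 tested, 7 were positive, with a median of 2.06. The 9 cells of animals 9 and 10 were picked by these markers, so the list is lower without them by construction. LAPTM5, a lysosomal protein of leukocytes, had 3, 1, 170 and 20 counts in the older pigs, against 0, 0 and 4 in the younger pigs, and TYROBP, a signalling adaptor of myeloid cells, 0, 0, 190 and 65 against 0, 1 and 12. The chemokine gene CCL8 had no reads in the younger pigs and stood at 5.12 and 4.52 log2 CPM in animals 9 and 10; these 3 genes were chosen after their values were seen. CD74, of antigen presentation, was at -0.18 ± 0.31. Interferon and antigen presentation genes were positive in 14 of 17, with a median of 0.38, and inflammation genes in 10 of 15, with a median of 0.76. Without the 9 macrophage-marked cells these were 10 of 17 with a median of 0.03 and 10 of 15 with a median of 0.72. SHISAL1 was at 3.6 ± 0.39 without those cells (edgeR, adjusted p = 0.0172). Schwann cell genes and satellite glia genes, the list that also holds ATP1B2, had medians of 0.33 and 0.06.

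The action potentials of the older pigs' neurons reached a higher peak and the cells had a higher recorded input resistance, as animal means that did not overlap; none of these passed the exact test after adjustment. Of the recorded parameters, 37 were measured in at least 70% of the 76 cells. The table states no units, and each value was averaged over the cells of a pig. The exact permutation test with Benjamini-Hochberg adjustment over the 37 called 0 (0%), with 3 at an unadjusted p under 0.05, and even the smallest p of 0.0286 in 3 parameters gave an adjusted p of 0.352. In 5 parameters (13.5%) every older pig was above every younger pig, and in 0 (0%) below.

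AP_max, the peak of the action potential, was 50.8, 51.9, 52.6 and 50.4 in animals 7, 8, 9 and 10, against 40.4, 39.9 and 48.2 in animals 1, 2 and 3. The older pigs lay within a narrow band above the younger ones, of which the 12 week pig was the nearest. The means were 51.4 ± 1.04 and 42.8 ± 4.63 (SD, n = 4 and 3, difference 8.61, exact permutation p = 0.0286, adjusted p = 0.352). Apamp, the amplitude, which equals AP_max minus the potential before the spike (RMP_beforeAP) in 75 of the 76 cells, was 112.5, 113.3, 113.8 and 111.7 in the older pigs, against 100.9, 99.97 and 108.6 in the younger pigs. Its means were 112.8 ± 0.90 and 103.2 ± 4.75 (difference 9.66, exact p = 0.0286, adjusted 0.352), with the same order of pigs, as the 2 parameters share the peak. The potential before the spike itself was -61.1 ± 0.49 and -60.4 ± 0.25 (exact p = 0.114).

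Loc_APHW, a column of the action potential's shape that the table does not explain, was 1.67, 3.35, 4.64 and 3.18 in the older pigs, against -3.08, -2.65 and 0.76 in the younger pigs (difference 4.86, exact p = 0.0286, adjusted 0.352). Input_res_new, the later of 2 input resistance columns, was 0.472, 0.550, 0.265 and 0.335 in the older pigs, against 0.135, 0.179 and 0.213 in the younger pigs. The highest values were those of animals 7 and 8, and animal 9 lay nearest to the younger pigs. The means were 0.406 ± 0.129 and 0.175 ± 0.039 (difference 0.230, exact p = 0.0571, adjusted 0.423). The earlier column, input_res, equals the later one in all 39 older cells and in 5 of the younger cells, and stood at 0.123, 0.150 and 0.252 in the younger pigs. The 2 columns were therefore filled differently for the ages, and this moved animal 3 close to animal 9.

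**Figure D4:**
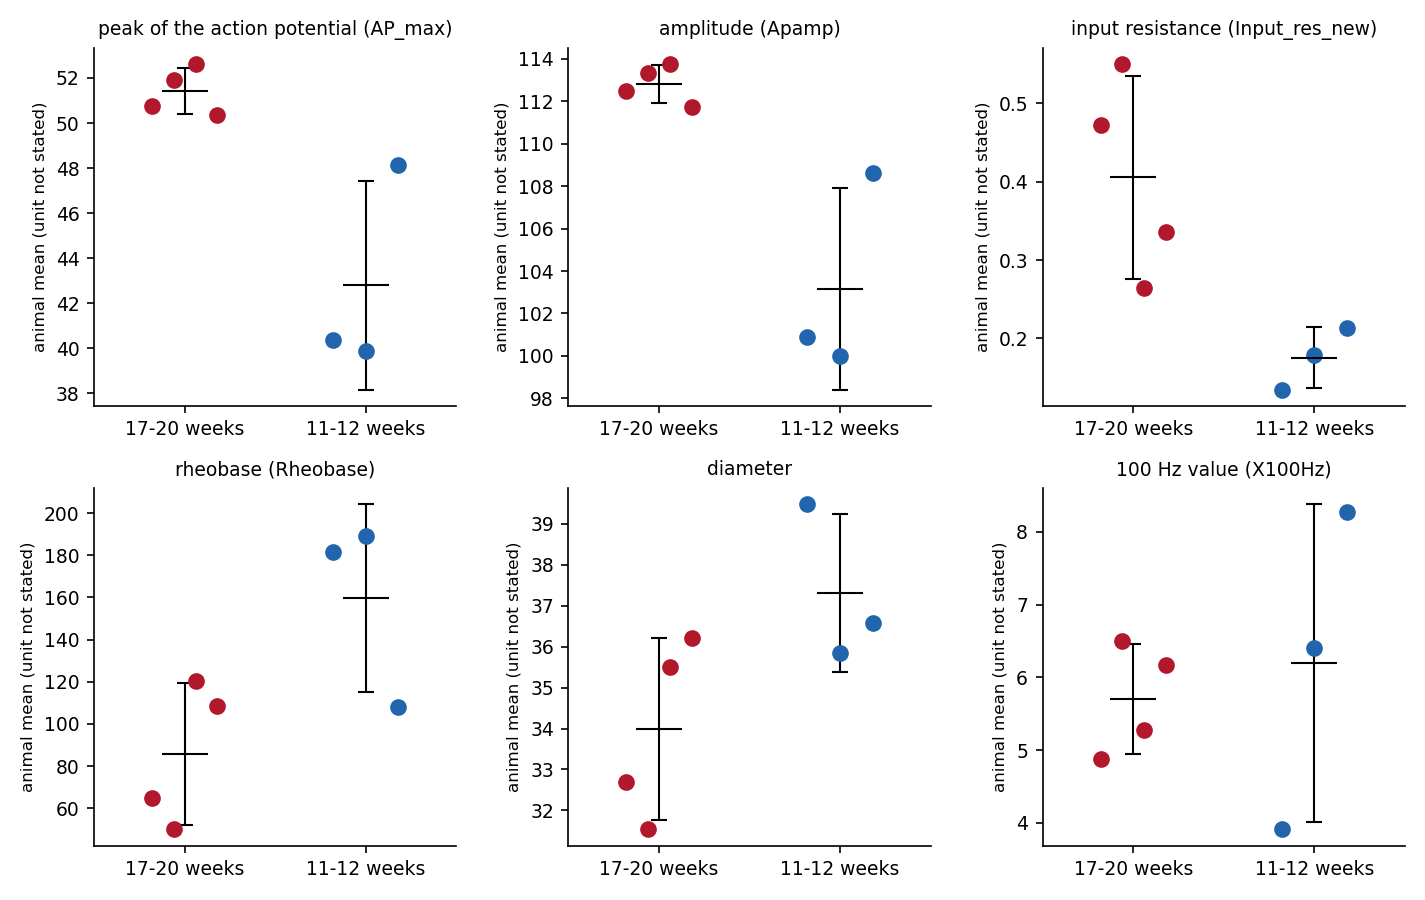
Animal means of AP_max, Apamp, Input_res_new, Rheobase, diameter and X100Hz at 1 day, in the table's own units, with the mean and SD of each age; 17-20 weeks (n = 4) stands left of 11-12 weeks (n = 3). The pigs of the ages do not overlap in AP_max, Apamp and Input_res_new, and overlap in the other 3 panels.

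The same action potential differences stood within 1 neuron class and on other days. Within ADCYAP1-high cells AP_max was 50.2, 51.9, 53.9 and 55.4 in the older pigs, against 41.99, 36.9 and 47.5 in the younger pigs (difference 10.7, exact permutation p = 0.0286), and Apamp differed by 11.6 (exact p = 0.0286). After 2 and 3 days AP_max was 45.03, 47.6, 54.9 and 42.4 against 36.1 and 39.7 in animals 1 and 2 (difference 9.55, exact p = 0.133, of a smallest possible 0.0667). In OSMR-high cells, present in 2 older and 3 younger pigs, AP_max was 51.71 and 49.99 against 39.02, 43.04 and 55.36, which overlap. The overlap rests on animal 3, which had 1 OSMR-high cell. Animals 1 and 2, with 6 such cells each, lay below both older pigs. Input_res_new within ADCYAP1-high cells was 0.630, 0.550, 0.329 and 0.327 against 0.135, 0.247 and 0.276 (difference 0.240, exact p = 0.0857), and after 2 and 3 days it was 0.195, 0.177, 0.340 and 0.242 against 0.090 and 0.202, where the ages overlap.

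With all 10 pigs of 11 to 20 weeks at 1 day, 4 of the 37 parameters (10.8%) followed age, by a permutation test of Pearson's r with 100000 resamples. Apamp increased by 1.36 per week (r = 0.863, p = 0.00028, adjusted over 37 relations 0.0104; Spearman's rho 0.905, p = 0.00063, adjusted 0.0117; r = 0.834 without the 2 pigs farthest from the median age). Input_res_new increased by 0.0372 per week (r = 0.871, p = 0.00064, adjusted 0.0118; rho 0.924, p = 0.0003, adjusted 0.0111; r = 0.758 without the 2 farthest). The input_res column gave r = 0.867 (p = 0.00105, adjusted 0.0129; rho 0.875, p = 0.00186, adjusted 0.0229; r = 0.744). AP_max increased by 1.20 per week (r = 0.807, p = 0.0016, adjusted 0.0148; r = 0.763 without the 2 farthest), but its rho of 0.703 had p = 0.0287 and missed after adjustment (0.209). Between the ages, animals 4, 5 and 6 had Apamp values of 107.2, 111.01 and 111.5, and Input_res_new values of 0.206, 0.220 and 0.360. The 7 pigs of the main comparison are among these 10, so this is the same evidence with 3 pigs more, and library numbers increase with age here too.

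**Figure D5:**
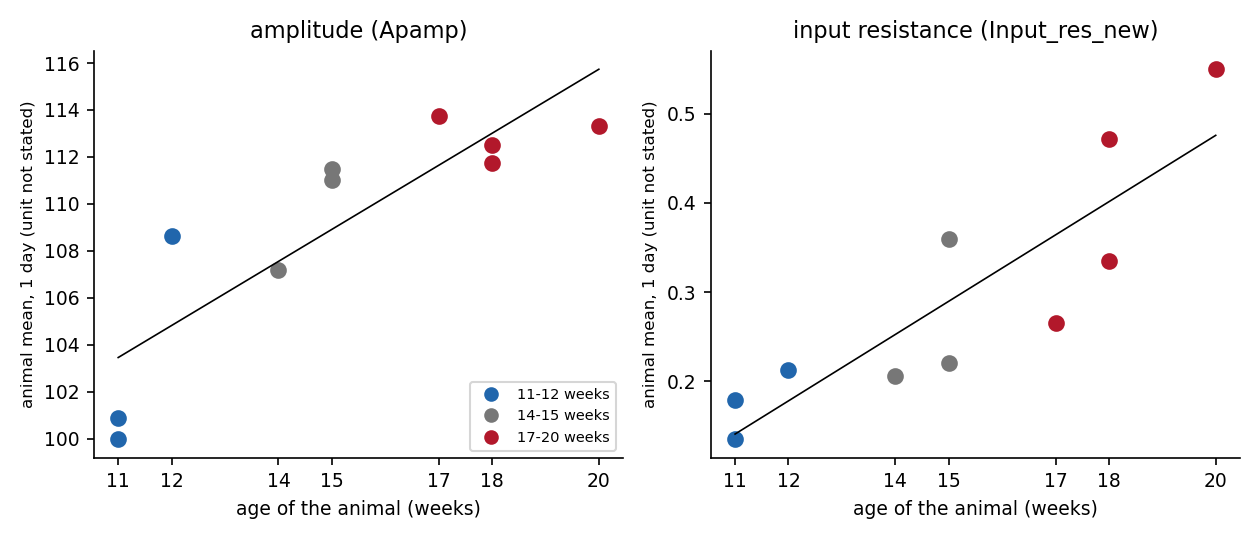
Apamp and Input_res_new, as the mean over the cells of each of the 10 pigs at 1 day, against age in weeks, with the straight line fitted over the pigs. Apamp goes up by 1.36 per week (r = 0.863) and Input_res_new by 0.0372 per week (r = 0.871), with animals 5 and 6 at 15 weeks between the outer ages in Apamp and animal 4 at 14 weeks within the range of the younger pigs.

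Animal means scaled by the SD between single cells, not between pigs, were also tested with limma, which shares 1 spread over the parameters. There 4 of 37 (10.8%) passed between 17-20 and 11-12 weeks: input_res (1.12 of these SD higher, limma, adjusted p = 0.0122), Input_res_new (1.08, 0.0122), Apamp (1.00, 0.0194) and AP_max (0.93, 0.0294). This fit uses the same SE for all 37 parameters, several of which share a measurement, whereas the smallest p that the exact test can give, 0.0286, is 0.352 after adjustment here.

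Size and excitability were not told apart between the ages. The diameter was 32.7, 31.5, 35.5 and 36.2 in the older pigs, against 39.5, 35.9 and 36.6 in the younger pigs (33.99 ± 2.23 and 37.3 ± 1.92, exact p = 0.143), and animal 10 overlapped with animal 2. The capacitance column cslow averaged 71.4 ± 14.4 and 84.99 ± 22.7 (exact p = 0.343). The resting potential RMP averaged -57.3 ± 3.35 and -56.6 ± 1.96 (exact p = 0.80). Rheobase, the current needed for a spike, was 65, 50, 120.2 and 108.3 in the older pigs, against 181.8 and 108.2 in animals 1 and 3 of the younger pigs, with animal 2 the highest of all; animal 3 was level with animal 10 (difference -73.8, exact p = 0.143). After 2 and 3 days the difference in Rheobase was 54.03, of the other sign (exact p = 0.267).

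Spike width, afterhyperpolarisation and following of fast trains overlapped. APD, the spike duration, averaged 3.09 ± 0.43 and 3.44 ± 0.50 (exact permutation p = 0.343), and AHP_new and Min_AHP, columns of the afterhyperpolarisation, 41.5 ± 15.2 and 29.997 ± 7.67 (exact p = 0.343) and -77.0 ± 2.66 and -74.3 ± 1.65 (exact p = 0.171). The columns X4Hz and X10Hz averaged 17.5 ± 2.95 and 17.2 ± 2.80 (exact p = 1) and 17.0 ± 3.66 and 17.1 ± 2.90 (exact p = 1). X20Hz, X50Hz and X100Hz averaged 15.8 ± 3.51 and 14.6 ± 3.97 (exact p = 0.686), 11.08 ± 0.51 and 10.3 ± 3.68 (exact p = 0.629), and 5.70 ± 0.76 and 6.19 ± 2.19 (exact p = 0.714). The mean share of cells marked as spontaneously active was 0.272 ± 0.180 and 0.293 ± 0.097 (exact p = 0.83). With 4 against 3 pigs these p-values do not show that the ages act alike.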

How the data were processed

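The deposited table of estimated counts (30420 genes, not whole in 52.1% of the values above 0) was made by the authors from Smart-Seq2 libraries without molecular identifiers; reads were demultiplexed with bcl2fastq 2.20, per the submitters' processing notes, and the labels name neither aligner nor genome build. The deposited table of recordings holds values of other kinds, in units it does not state, of which 378 columns were not used. The members and gene lists were chosen with earlier results of these data known.

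Counts at 1 day were summed per pig, rounded and tested with edgeR 4.0.16 (quasi-likelihood, TMM scaling, filterByExpr, Benjamini-Hochberg) in R 4.3.3. Levels are log2 CPM with TMM factors over all 10 pigs and a prior count of 2. Alternatives used DESeq2 1.42.0 and limma 3.58.1. Recorded parameters were averaged per pig and compared by an exact two-sided permutation test. Scripts were tested on simulated data. Counting precision follows depth, 609551 to 25457482 counts per pig.

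Gene symbols came from name tables, by identifier. Named were 20 genes fixed by name (XIST had no identifier), the up to 10 passing genes in each direction or, with fewer than 5, the 5 with the smallest p, a symbol and a mean log2 CPM over 4, and the 2 most abundant members of each list, of which the text gives a part, as some items are not reported here; others are marked as chosen after their values were seen. No sequence is shown, as none was used here.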

Additional observations from a re-analysis of the deposited data

Results flagged for a closer look

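In 120 genes and recorded parameters the 4 pigs of 17-20 weeks were searched for a pig far from the other 3, by the gap to its neighbour over the whole range (Dixon's test), and 7 were found; chance flags about 1 in 20 groups. Animal 8, which gave 2 cells, lay below the other older pigs in MCM6 (log2 CPM 0.70), ANO3 (-2.56, no counts), CCL2 (-2.56, no counts) and CD74 (6.35). The same pig lay above the others in AHP_new (64.1). Animal 7 lay below the others in DUSP1 (log2 CPM 6.91) and above them in pA_start (6.25).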

How the results depend on the processing

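No paired analysis was possible because each pig has 1 age and the groups share no replicate numbers. The count of genes past the threshold, 1, was 1 with DESeq2's size factors, with limma on per-cell means, with a filter of at least 10 counts, without macrophage-marked cells, without the 3 cells of low neuronal markers and in neurons of 2 and 3 days. DESeq2's own test called 48 (38 higher, 10 lower), edgeR with no filter 3, and with at least 3 or at least 5 cells per pig or with cells thinned to 100000 counts 2. Both limits on cells per pig drop only animal 8, so they are the same fit as leaving out animal 8. The count of genes was 0 in ADCYAP1-high cells, without OSMR-high cells, in OSMR-high cells alone and for a slope per week, with 1168, 728, 779 and 1770 genes at an unadjusted p under 0.05 by edgeR. Leaving out 1 pig gave 0 to 2 genes. Recorded parameters passing, 0 by the exact test, were 4 with limma and 4 for the slope per week. The tests of OSMR-high cells alone, of the later days and without the 3 cells were added after seeing the data; the causes of these shifts were not tested. Of the recorded parameters under all alternatives, 502 differences kept their direction and their side of the threshold and 8 newly passed. The others had the other sign without passing under either setting. For the exact test the side was nearly fixed in advance, as its smallest p with 4 against 3 pigs is 0.0286 before adjustment. Staying on that side is therefore no evidence of stability. Of the list medians, 671 moved by less than the spread between pigs and 64 by more. Both tallies count the fit without animal 8 under each of its names. Depth differs between pigs by the cells picked, and animal 8 rests on 2 cells; intervals of counting error do not cover which neurons were picked.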
